A study of Homo sapiens with 10 samples.

Results

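The cathepsin genes examined were CTSA, CTSB, CTSC, CTSD, CTSF, CTSH, CTSK, CTSL, CTSS and CTSZ, chosen by gene symbol. All 10 were on the array, with 1 probe set each, among 17492 measured genes. They were compared between 5 vehicle and 5 doxycycline subcutaneous tumours grown in BALB/c nude mice from A375, a human melanoma line long established in culture. Per the labels' protocols, doxycycline or its vehicle was given in drinking water once tumours reached 100 mm3, and tumours were excised on day 7. Doxycycline switches on Omomyc, a dominant-negative fragment of MYC, in the tumour cells. There was no arm with doxycycline but without Omomyc, so the effect of the drug and that of Omomyc cannot be told apart. The sources used here give neither the promoter that drives Omomyc, nor whether the line is 1 clone, nor the age of the mice. Nude mice lack mature T cells but keep macrophages and other myeloid cells. Values are log2 expression per probe set, 1 array per tumour, and changes are doxycycline minus vehicle. The pieces were whole tumours, so more cells of a type and more RNA per cell cannot be told apart, and mouse transcripts may bind human probes.

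Cathepsins are the main protein-cutting enzymes of the lysosome, the acidic compartment in which cells break down proteins. They are made as inactive precursors, carried to the lysosome mostly by mannose 6-phosphate receptors, and activated by removal of a propeptide at acid pH. Most are cysteine proteases of the papain family (CTSB, CTSC, CTSF, CTSH, CTSK, CTSL, CTSS and CTSZ), CTSD is an aspartic protease and CTSA a serine carboxypeptidase. Cystatins inhibit the cysteine cathepsins. In tumours cathepsins come both from tumour cells and from macrophages, and when secreted they cut extracellular matrix.

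Of the 10 cathepsin genes 8 rose in the doxycycline tumours and 0 fell (limma, adjusted p under 0.05 over all genes), with a median change of 0.82. Among all genes 5.03% rose and 5.95% fell, with a median change of 0.017. At an unadjusted p under 0.05 the counts in limma were also 8 and 0, as they were with the exact permutation test. Over all 17492 genes 2192 were higher and 2115 lower at an unadjusted p under 0.05 in limma. The unadjusted limma counts of the lists below have the same reference. Exact permutation counts were not made over all genes, so those of the lists have no such reference. For 7 of the 10 genes every doxycycline tumour lay above every vehicle tumour, which held for 5.38% of all genes, and for 0 of the 10 did every doxycycline tumour lie below, which held for 6.43% of all genes. CTSF, CTSL and CTSS changed most, by 2.72-fold, 2.28-fold and 2.03-fold, and CTSK and CTSC did not pass. The family was picked with results of these data known, so its count is a description.

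Promoter sequences of the cathepsin genes are shown because 8 of them rose together and because CACGTG, the E-box bound by MYC and MAX, is also the core of the element bound by TFEB and TFE3, regulators of lysosomal genes. RefSeq windows of 300 bases (GRCh38.p14, 250 before to 50 after the start) matched 7 of the 10 genes by symbol, all but CTSB, CTSK and CTSS. CACGTG, which reads the same on both strands, was found in 3 of these 7 windows, those of CTSA, CTSD and CTSF, against 8.22% of 19911 windows of genes on the array. The longer TCACGTGA, which contains CACGTG and is also its own reverse complement, was in the CTSA window and in 1.27% of those windows. The 250 bases before the start are printed for the 3 genes with CACGTG, in capitals, and for CTSL, which rose without CACGTG in its window. They lie at chr20:45891085-45891334 on the plus strand (CTSA), chr11:1763928-1764177 on the minus strand (CTSD), chr11:66568607-66568856 on the minus strand (CTSF) and chr9:87725869-87726118 on the plus strand (CTSL).
CTSA: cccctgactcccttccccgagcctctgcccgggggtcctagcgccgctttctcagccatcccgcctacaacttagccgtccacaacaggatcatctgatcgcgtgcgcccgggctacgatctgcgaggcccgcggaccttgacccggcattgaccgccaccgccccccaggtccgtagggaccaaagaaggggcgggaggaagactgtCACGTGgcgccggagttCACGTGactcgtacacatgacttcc
CTSD: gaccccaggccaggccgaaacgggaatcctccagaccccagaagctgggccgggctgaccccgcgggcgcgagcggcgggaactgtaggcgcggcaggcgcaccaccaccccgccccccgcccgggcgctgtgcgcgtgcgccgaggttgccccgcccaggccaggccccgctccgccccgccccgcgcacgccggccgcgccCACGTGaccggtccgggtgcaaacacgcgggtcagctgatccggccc
CTSF: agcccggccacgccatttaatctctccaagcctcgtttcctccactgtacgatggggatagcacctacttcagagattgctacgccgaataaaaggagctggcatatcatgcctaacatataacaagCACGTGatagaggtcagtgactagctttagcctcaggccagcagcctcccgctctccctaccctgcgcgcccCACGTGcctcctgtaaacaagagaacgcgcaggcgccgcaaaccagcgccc
CTSL: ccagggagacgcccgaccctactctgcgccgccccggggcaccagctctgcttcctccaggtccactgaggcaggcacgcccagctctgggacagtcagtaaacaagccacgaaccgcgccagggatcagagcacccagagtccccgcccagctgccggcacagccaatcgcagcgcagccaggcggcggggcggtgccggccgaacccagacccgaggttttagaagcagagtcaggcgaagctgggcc
The CACGTG sites of CTSA begin 42 and 25 bases before the start and that of CTSD 47 bases before it. Those of CTSF begin 123 and 51 bases before it. Other forms of the E-box were not searched for. Genes that rose were thus found both with CACGTG (CTSA, CTSD and CTSF) and without it (CTSH, CTSL and CTSZ), and the window of CTSC, which did not pass, held none. A match of letters does not show binding, and no binding was measured here.

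CTSF encodes a cysteine protease whose long propeptide carries a cystatin-like domain, and its printed promoter window holds 2 CACGTG sites. In vehicle tumours 1 to 5 it was at 5.73, 5.67, 5.45, 5.42 and 5.95, and in doxycycline tumours 1 to 5 at 7.46, 7.25, 7.09, 6.80 and 6.85. The groups were separated by a gap of 0.86, and even the lowest doxycycline tumours, 4 and 5, stood well clear of the highest vehicle tumour. The mean went from 5.64 ± 0.22 to 7.09 ± 0.27 (SD, n = 5 each), a rise of 1.45 (95% CI 1.10 to 1.79; limma, adjusted p = 0.000166). This was the largest change among the 10 genes.

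CTSL, whose window holds no CACGTG, is an endopeptidase that degrades proteins in the lysosome and, when secreted, in the matrix. It was at 8.21, 8.08, 8.04, 8.28 and 8.02 in vehicle tumours 1 to 5. In doxycycline tumours 1 to 5 it was at 8.96, 9.52, 9.12, 9.47 and 9.50. All doxycycline tumours were higher than all vehicle tumours, by at least 0.67. The rise was 1.19 (95% CI 0.884 to 1.49; limma, adjusted p = 0.000268), and its size was 0.83 to 1.39 in single tumours relative to the vehicle mean. CTSV, a close relative of CTSL in sequence, was far below the median of every array at 2.35 ± 0.54 and 2.38 ± 0.54 (SD, n = 5 each). Its difference was 0.037 (95% CI -0.601 to 0.675; limma, adjusted p = 0.961).

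CTSS cuts the invariant chain from MHC class II molecules in antigen-presenting cells. It was at 6.59, 7.37, 6.75, 6.71 and 6.40 in vehicle tumours 1 to 5 and at 8.21, 7.42, 7.76, 7.995 and 7.56 in doxycycline tumours 1 to 5. Vehicle tumour 2 was high for its group, so that the groups were separated by only 0.053. The rise was 1.02 (95% CI 0.592 to 1.46; limma, adjusted p = 0.00600). CTSS and CTSK are the genes of this family most often tied to cells of the host, CTSS to macrophages and dendritic cells and CTSK to osteoclasts and fibroblasts.

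CTSB, a cysteine protease that also works as a carboxypeptidase, was at 10.60, 10.73, 10.53, 10.53 and 10.48 in vehicle tumours 1 to 5. Doxycycline tumours 1 to 5 were at 11.24, 11.32, 11.40, 11.40 and 10.72. In 4 of 5 doxycycline tumours it was above the vehicle range, and tumour 5 lay inside it. The rise was 0.64 (95% CI 0.327 to 0.954; limma, adjusted p = 0.0136; exact two-sided permutation test, p = 0.0159). CTSZ, a carboxypeptidase, was at 9.47, 9.74, 9.57, 9.54 and 9.66 in vehicle and 9.97, 10.19, 10.20, 10.15 and 9.82 in doxycycline tumours, a rise of 0.47 (95% CI 0.214 to 0.729; limma, adjusted p = 0.0232). The groups did not overlap, with doxycycline tumour 5 again the lowest of its group. CTSZ had the smallest change of the 8 genes that rose, and its call was lost without vehicle tumour 1, 3 or 4 (adjusted p = 0.0643, 0.0561 and 0.0570) and without doxycycline tumour 2 or 3 (adjusted p = 0.0551 and 0.0525), while its change stayed between 0.44 and 0.53.

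**Figure D1:**
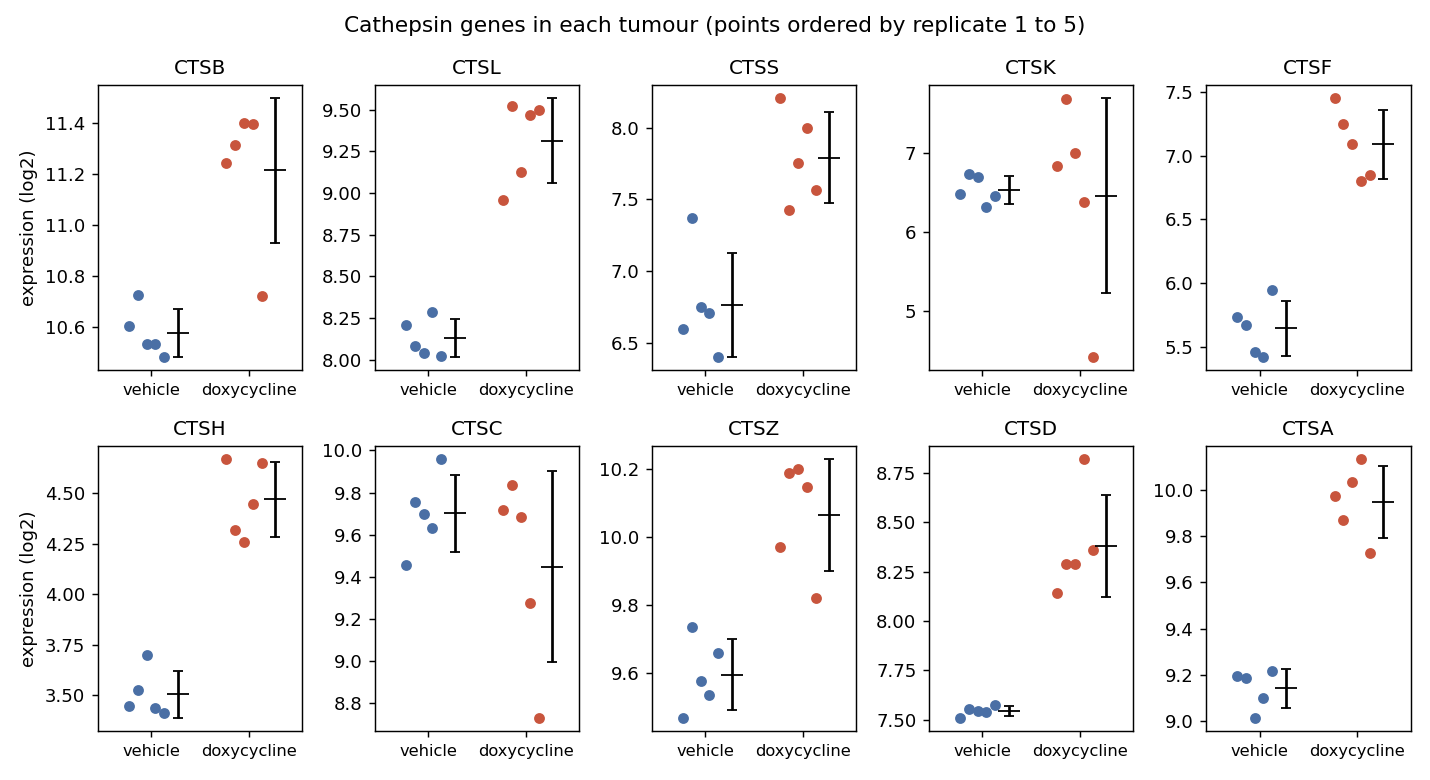
Log2 expression of the 10 cathepsin genes in each tumour, 5 vehicle (blue) and 5 doxycycline (red), with points placed left to right by replicate number and the mean ± SD (black) beside them; each panel has its own axis, which does not start at 0. CTSF, CTSL, CTSS, CTSH, CTSZ, CTSD and CTSA show no overlap between groups, CTSB overlaps through doxycycline tumour 5, and CTSK and CTSC overlap, with that tumour lowest at 4.41 and 8.73.

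CTSH, an aminopeptidase of the cysteine class, was at 3.45, 3.53, 3.70, 3.43 and 3.41 in vehicle and 4.67, 4.32, 4.26, 4.45 and 4.65 in doxycycline tumours. It lay below the array median in all 10 tumours, a low signal in both groups. The groups did not overlap, and the rise was 0.96 (95% CI 0.695 to 1.23; limma, adjusted p = 0.000487).

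The aspartic protease CTSD, one of the most abundant lysosomal proteases, has CACGTG in its printed window. So does the serine carboxypeptidase CTSA, which also shields neuraminidase and beta-galactosidase from breakdown. CTSD was at 7.51, 7.55, 7.54, 7.54 and 7.58 in vehicle tumours and at 8.14, 8.29, 8.29, 8.82 and 8.36 in doxycycline tumours. The vehicle tumours were nearly alike (SD 0.024) and doxycycline tumour 4 was the highest. CTSD rose by 0.84 (95% CI 0.546 to 1.13; limma, adjusted p = 0.00194). CTSA was at 9.19, 9.19, 9.01, 9.10 and 9.22 in vehicle and 9.97, 9.87, 10.04, 10.14 and 9.73 in doxycycline tumours, and rose by 0.81 (95% CI 0.560 to 1.06; limma, adjusted p = 0.000959). The CTSA groups were 0.51 apart and those of CTSD 0.57. For each of the 7 genes whose groups did not overlap, the exact two-sided permutation test gave p = 0.00794, the smallest that 252 splits allow.

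CTSK and CTSC did not pass, and their doxycycline tumours were spread more widely than their vehicle tumours. CTSK, the collagen-cutting cathepsin of osteoclasts, was at 6.47, 6.73, 6.69, 6.31 and 6.46 in vehicle tumours and at 6.83, 7.68, 6.996, 6.38 and 4.41 in doxycycline tumours. Tumours 1 to 3 were above all vehicle tumours, tumour 4 was inside their range, and tumour 5 was 2.12 below the vehicle mean. The difference was -0.074 (95% CI -1.08 to 0.933; limma, adjusted p = 0.948), with an SD of 1.24 in the doxycycline group and 0.18 in the vehicle group. Without doxycycline tumour 5 the difference was 0.44 (limma, adjusted p = 0.255). CTSC, also called dipeptidyl peptidase I, activates the granule proteases of neutrophils, mast cells and cytotoxic lymphocytes. It was at 9.45, 9.76, 9.70, 9.63 and 9.96 in vehicle and 9.72, 9.83, 9.68, 9.28 and 8.73 in doxycycline tumours, a difference of -0.25 (95% CI -0.689 to 0.185; limma, adjusted p = 0.497). Doxycycline tumours 1 to 3 lay inside the vehicle range, and tumours 4 and 5 lay below it. Without doxycycline tumour 5 the difference of CTSC was -0.073 (limma, adjusted p = 0.826), the end of a range of -0.35 to -0.073 with each tumour left out. The CTSK interval holds a rise or a fall as large as that of CTSD, 0.84, and the CTSC interval holds no rise as large as the smallest among the genes that passed, 0.47 for CTSZ. The data do not show that either gene was unaffected.

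**Figure D2:**
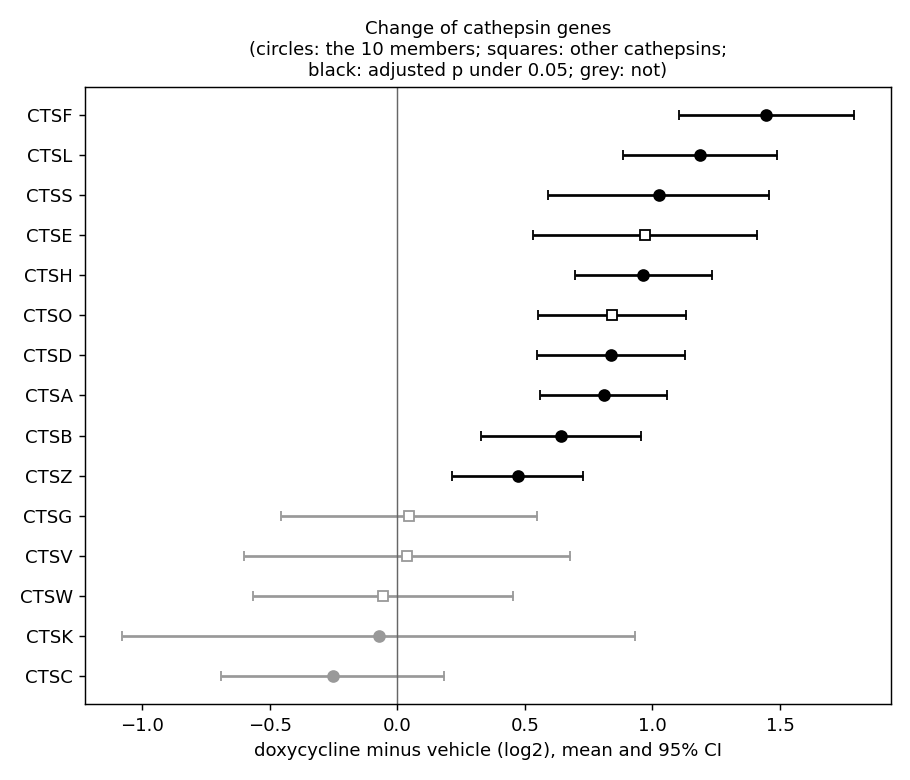
Change of each cathepsin gene, doxycycline minus vehicle on the log2 scale, with its 95% CI from limma (n = 5 per group); circles are the 10 genes examined, open squares 5 further cathepsins, and black marks an adjusted p under 0.05. The changes run from -0.25 for CTSC to 1.45 for CTSF, and CTSK has the widest interval.

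Doxycycline tumour 5 was the lowest of its group for 5 of the 10 genes and the highest for 0. The mean over the 10 genes lay 0.80, 0.86, 0.77, 0.77 and 0.32 above the vehicle mean in doxycycline tumours 1 to 5. Tumour 5 thus had the smallest shift, in a mean that includes CTSK and CTSC, which did not pass, at -2.12 and -0.97 there. For 7 of the 10 genes this tumour lay above every vehicle tumour. It was near the top of its group for CTSL and CTSH, 1.37 and 1.14 above the vehicle means. Over all genes it also had the lowest mean correlation with its own group, 0.967, and tumour 4 the next lowest, 0.973. Doxycycline tumours 1 to 3 were at 0.976 to 0.977 and the vehicle tumours at 0.982 to 0.985. Without tumours 4 and 5, left out after the data were seen, the same count of 8 rose, CTSK differed by 0.64 (limma, adjusted p = 0.0725) and CTSC by 0.044.

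**Figure D3:**
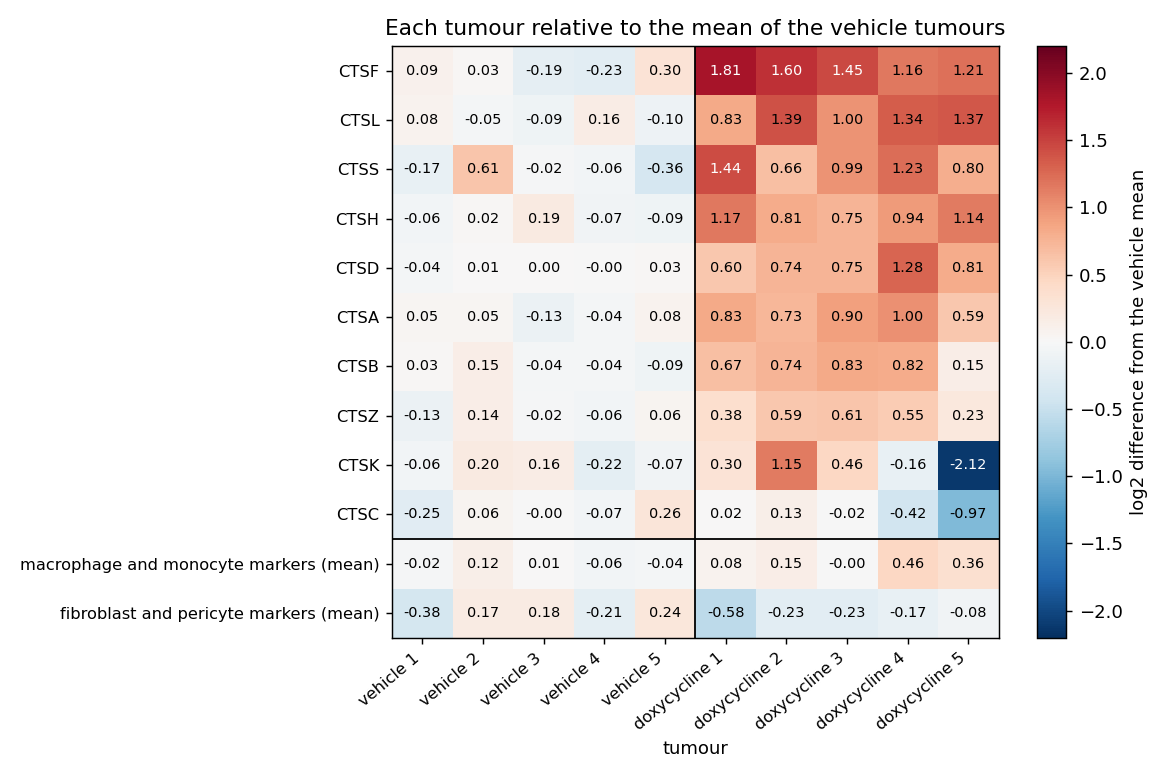
Log2 difference of each tumour from the mean of the 5 vehicle tumours, for the 10 cathepsin genes and for the means over macrophage and fibroblast markers (colour and printed value). Doxycycline tumour 5 stands out at -2.12 for CTSK and -0.97 for CTSC, and the macrophage marker mean is highest in tumours 4 and 5, at 0.46 and 0.36.

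Of 5 further cathepsins, CTSE, CTSG, CTSO, CTSV and CTSW, 2 rose, or 40% against 5.03% of all genes, and 0 fell (limma). The counts were also 2 and 0 at an unadjusted p under 0.05 and by the exact permutation test. CTSO, a widely expressed cysteine cathepsin, was at 4.14 to 4.34 in vehicle and 4.66 to 5.26 in doxycycline tumours and rose by 0.84 (limma, adjusted p = 0.00183). CTSE, an aspartic protease of endosomes, was at 2.71 to 3.62 and 3.77 to 4.55 and rose by 0.97 (limma, adjusted p = 0.00890). Both stayed below the array median in all 10 tumours. CTSG, a serine protease of neutrophil granules, differed by 0.044, and CTSW, a cathepsin of cytotoxic lymphocytes, by -0.057. CTSG was below the array median in all 10 tumours and CTSW in 9.

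Cathepsins are held in check by cystatins and some serpins. Of 17 measured inhibitors 1 rose and 0 fell (limma; 2 and 0 at an unadjusted p under 0.05 and by the exact permutation test). Their median change was 0.10, and the share higher was 5.88%, against 5.03% of all genes. The mean over the 17 was 3.78 to 4.08 in vehicle and 3.91 to 4.19 in doxycycline tumours, under the array medians of 5.45 to 5.56. Only CST3, CSTB, SERPINA3 and SERPINB1 had group means above those medians. The data do not show that the inhibitors that did not pass were unaffected. The gene that rose was CST3, cystatin C, the main secreted inhibitor of cysteine cathepsins, from 8.51 to 8.94 in vehicle to 9.04 to 9.58 in doxycycline tumours, by 0.64 (limma, adjusted p = 0.00862). That call was lost with the fibroblast marker mean as a covariate, where 0 inhibitors were higher. The cytosolic inhibitors CSTB and CSTA differed by 0.24 (adjusted p = 0.266) and 0.56 (adjusted p = 0.106). CSTB was at 8.88 to 9.08 in vehicle and 9.04 to 9.56 in doxycycline tumours, with tumour 4 the highest.

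Of 13 measured genes for the delivery of lysosomal enzymes 2 rose and 1 fell, or 15.4% and 7.69%, against 5.03% and 5.95% of all genes (limma; 5 higher and 2 lower at an unadjusted p under 0.05 and by the exact permutation test). M6PR, the cation-dependent mannose 6-phosphate receptor, rose by 0.42 (limma, adjusted p = 0.0304), and GNPTG, a subunit of the phosphotransferase that makes the mannose 6-phosphate tag, by 0.43 (adjusted p = 0.0379). CLN6, which helps lysosomal enzymes leave the endoplasmic reticulum, fell by 0.99 (limma, adjusted p = 0.00171), with all doxycycline tumours below all vehicle tumours. The second receptor, IGF2R, differed by 0.074 (adjusted p = 0.786).

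Among 27 other measured lysosomal hydrolases and their activators 5 rose and 1 fell, a share of 18.5% higher against 5.03% of all genes, with a median change of 0.25 (limma; 11 higher and 1 lower at an unadjusted p under 0.05, 10 and 2 by the exact permutation test). Those that rose were SMPD1, acid sphingomyelinase, by 1.38, the nuclease DNASE2 by 0.77, the fucosidase FUCA1 by 0.65, PSAP, which encodes the saposin activators of lipid-degrading enzymes, by 0.64, and the sulfatase IDS by 0.56 (limma, adjusted p = 0.0345, 0.00696, 0.00965, 0.00418 and 0.0170). LIPA, the acid lipase that frees cholesterol from its esters, fell by 0.63 (adjusted p = 0.00595). LGMN, the legumain that processes several cathepsins, differed by 0.25 (adjusted p = 0.560). The count of higher hydrolases was 10 with trended and robust moderation and 9 with the dimmest 30% of genes removed. It was 2 with the macrophage marker mean and 3 with the fibroblast marker mean as a covariate. Genes called higher over the whole table numbered 1200, 1082 of 12244, 467 and 488 in these fits, in place of 880. No difference between the cathepsins and these hydrolases was tested.

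Of 4 regulators that bind the lysosomal element 0 passed in either direction, against 5.03% higher and 5.95% lower of all genes (limma). So few genes cannot tell 0 from these shares. At an unadjusted p under 0.05 and by the exact permutation test 1 was higher and 0 lower. TFE3 was at 6.62 ± 0.07 and 6.96 ± 0.12 (SD, n = 5 each), a difference of 0.34 (adjusted p = 0.0610), without overlap between the groups. TFEB and MITF differed by 0.23 (adjusted p = 0.341) and 0.086 (adjusted p = 0.850), and TFEC by -0.15 (limma, adjusted p = 0.538). The vehicle and doxycycline means of TFEB, 3.75 and 3.98, and of TFEC, 2.00 and 1.85, were under the array medians of 5.45 to 5.56. These are transcript levels, while TFEB and TFE3 are known to be controlled largely by where the protein sits in the cell.

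**Figure D4:**
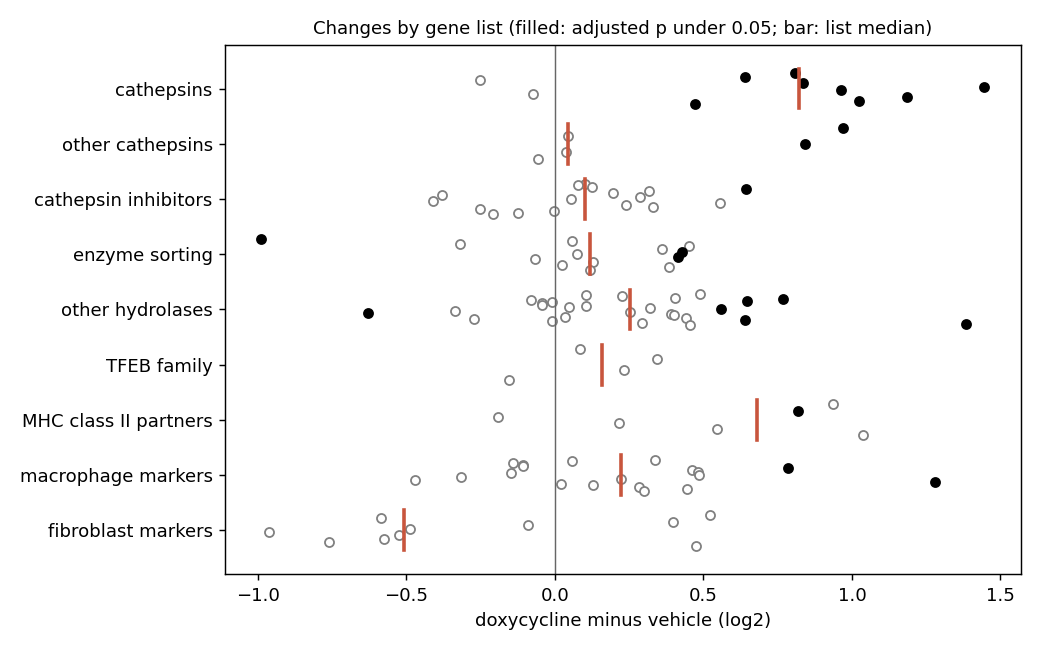
Change of each measured gene, doxycycline minus vehicle on the log2 scale, by gene list; filled points passed an adjusted p under 0.05 and the red bar is the list median. The cathepsin median is 0.82, against 0.25 for other hydrolases and 0.10 for the inhibitors, and fibroblast markers have a median of -0.51 with no gene past the threshold. Most of the inhibitors had levels under the array medians.

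CTSS acts in antigen presentation by MHC class II. Of 6 measured partner genes of that pathway 1 rose, or 16.7% against 5.03% of all genes, and 0 fell. It was CIITA, the coactivator of MHC class II genes, which rose by 0.82 (limma, adjusted p = 0.0179). CIITA was at 3.05 to 3.47 in vehicle and 3.41 to 4.55 in doxycycline tumours, under the array median in all of them. Doxycycline tumour 5 lay inside its vehicle range. At an unadjusted p under 0.05 and by the exact permutation test 3 rose and 0 fell. CD74, the invariant chain that CTSS cuts, was at 8.18, 8.36, 7.76, 8.07 and 8.15 in vehicle and 9.46, 9.06, 9.56, 9.40 and 7.71 in doxycycline tumours (adjusted p = 0.0710). Doxycycline tumour 5 was below every vehicle tumour for CD74, and HLA-DRA, picked after its values were seen, was at 2.84 there against 6.82 to 8.21 in the other doxycycline tumours. That tumour was the lowest of its group for each of the 6 partner genes. CTSS itself was at 7.56 there, above the whole vehicle range. Of 5 measured granule protease genes activated by CTSC, 0 passed, against 5.03% higher and 5.95% lower of all genes (limma). The count was also 0 at an unadjusted p under 0.05 and by the exact permutation test. PRTN3 came nearest, with a difference of -0.33 (95% CI -0.671 to 0.017; limma, adjusted p = 0.228). Their group means were low, 2.48 to 4.65, under the array medians of 5.45 to 5.56. The data do not show that these genes were unaffected.

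Macrophages are rich in cathepsins. Of 19 macrophage and monocyte markers 2 rose, or 10.5% against 5.03% of all genes, and 0 fell. LYZ rose by 1.28 and CD14 by 0.79 (limma, adjusted p = 0.000384 and 0.0244). At an unadjusted p under 0.05 there were 3 higher and 1 lower, and by the exact permutation test 3 and 0. The changes were positive for 13 of the 19 and negative for 6. These 6 were LAPTM5, FCGR3A, CSF1R, C1QA, C1QC and C1QB, at -0.47 to -0.11. The mean over the 19 was 3.98 to 4.17 in vehicle and 4.04 to 4.50 in doxycycline tumours. It lay under the array medians of 5.45 to 5.56. CD68, a lysosomal protein of macrophages, was at 8.96 ± 0.32 and 9.44 ± 0.23 (SD, n = 5 each; adjusted p = 0.0975), whereas the leukocyte gene PTPRC was at 2.30 ± 0.12 and 2.74 ± 0.59 (adjusted p = 0.280). With the macrophage marker mean as a covariate, CTSF, CTSL, CTSH, CTSA and CTSD kept their calls, with changes of 1.64, 1.03, 0.89, 0.81 and 0.64. CTSB, CTSS and CTSZ then lost theirs, with changes of 0.70, 0.91 and 0.49 (adjusted p = 0.0542, 0.0677 and 0.0890), in a fit where 467 genes in all were called higher in place of 880. Without the covariate the changes of CTSB and CTSZ were smaller, 0.64 and 0.47, and that of CTSS larger, 1.02. The marker mean was itself 0.21 higher in the doxycycline group and comes from human probe sets, so that fit cannot single out host macrophages. The part of host macrophages in these changes was not tested.

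Of 10 fibroblast and pericyte markers 0 passed in either direction, against 5.03% higher and 5.95% lower of all genes (limma). At an unadjusted p under 0.05 there were 2 higher and 3 lower, and by the exact permutation test 1 and 3. Their mean was 5.30 to 5.93 in vehicle and 5.11 to 5.60 in doxycycline tumours. With that mean as a covariate CTSB differed by 0.60 (adjusted p = 0.0659). Of 8 endothelial markers 0 passed, against the same shares of all genes (0 also at an unadjusted p under 0.05 and by the exact permutation test). Among melanoma markers, the probe sets of PRAME, SOX10 and the pigment gene MLANA read 8.59 ± 0.12, 7.40 ± 0.15 and 3.12 ± 0.39 in vehicle tumours (SD, n = 5); levels of different probe sets are not comparable, and MLANA was below the array median in both groups. Of 12 measured melanoma markers 1 rose, NGFR, by 1.01 (limma, adjusted p = 0.00349), and 0 fell. The share higher was 8.33%, against 5.03% of all genes. At an unadjusted p under 0.05 there were 2 higher and 1 lower, and by the exact permutation test 2 and 0. Doxycycline tumour 5 also stood apart in some of these markers, picked after their values were seen. SOX10 was at 6.49 there against 7.45 to 7.85 in the other doxycycline tumours, S100B at 5.06 against 7.21 to 7.48, and the receptor gene AXL at 9.30 against 7.90 to 8.27. Of the other markers, S100A1, PRAME and NGFR were also lowest in tumour 5 within its group, whereas CSPG4 and TYRP1 were highest there. MLANA, PMEL, TYR and SOX9 lay within the range of the other doxycycline tumours. The part of SOX10, S100B and AXL in the low CTSK and CTSC values of that tumour was not tested.

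Genes with the most similar profiles were found for each of the 8 cathepsins that rose, by the root mean square distance over the 10 tumours after subtracting each gene's vehicle mean. Nearest to CTSD were LAMP2 and MCOLN1, at distances of 0.089 and 0.090 on the log2 scale, with rises of 0.76 and 0.86. CTSZ was nearest to PRNP and ZNF554 (0.080 and 0.089), CTSA to ARL6IP5 and ACTN4 (0.11 each), and CTSB to ENDOD1 and YPEL5 (0.11 each). For CTSL they were IGFBP6 and CYSTM1 (0.12 and 0.16), for CTSH WIPI1 and SPTAN1 (0.16 and 0.17), for CTSS PLD1 and PLA2G4C (0.18 and 0.23) and for CTSF CD55 and ZMAT3 (0.20 and 0.22). All 16 are genes that rose (limma, adjusted p of at most 0.0181), as the measure favours genes with a like change, and none of the 16 is another cathepsin.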

How the data were processed

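Expression was measured on Affymetrix arrays in 10 tumours, 5 vehicle and 5 doxycycline, labelled as biological replicates, 1 array each. The deposited table holds log2 values, for which the submitters' processing notes name RMA. The sources used here give no RMA version, array model or genome build, and no detection calls were used. Of 18569 probe sets, 17511 had 1 gene symbol in the platform annotation, 0 had several and 1058 had none. All 17511 Entrez identifiers matched the gene table. The probe set with the highest mean stood for a gene, which mattered for 17 genes, none of them a cathepsin examined here.

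Groups were compared over all 17492 genes with limma 3.58.1 in R 4.3.3 (lmFit, eBayes, group as the single term, two-sided), p-values being adjusted after Benjamini-Hochberg across the whole table (threshold 0.05). Single genes were also tested exactly, two-sided, by permutation over 252 splits, without adjustment. The fit was tested on simulated data. The number of arrays limits the precision. Promoters were searched with Python 3.11.15.

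The genes examined, the lists and the tests were chosen with earlier results of these data known. Named were the 10 genes, 5 further cathepsins, up to 6 called genes and some preset partners per list, and the 2 nearest profiles of each called cathepsin. Some genes of the lists were not analysed here. Settings were varied in 20 ways (replicate block, moderation, array weights, centring, quantile normalization, filter, probe set mean, 2 marker covariates, minimum change and each array left out).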

Additional observations from a re-analysis of the deposited data

Results flagged for a closer look

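CTSB in doxycycline tumour 5 stood apart from its group, at 10.72 against 11.24 to 11.40 in the other 4, so that the gap was 0.77 of the group's range. This was 1 of 30 groups examined (15 cathepsin genes in 2 groups each), and chance alone flags about 1 group in 20. Without that tumour the rise of CTSB was 0.76.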

How the results depend on the processing

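The count of 8 higher cathepsins was 7 or 8 in every other setting except the fit with the macrophage marker mean as a covariate, where it was 5 (7 to 8 with each array left out), and 0 fell in any. CTSA, CTSD, CTSF, CTSH, CTSL and CTSO kept their calls in all 21 settings, including that without doxycycline tumours 4 and 5, chosen after seeing the data. With the replicate number as a block, 7 cathepsins were higher, CTSZ having an adjusted p of 0.0556, and the other cathepsin calls did not change. The numbers are not known to pair tumours, since correlations of the deviations were -0.0635 to 0.191 and 2 of 5 vehicle tumours matched their own number best. A minimum change of 1.5-fold also dropped CTSZ. CTSE had an adjusted p of 0.0583 with the fibroblast marker mean as a covariate. Higher hydrolases numbered 10 with trended and robust moderation, 9 with the dimmest 30% removed, 2 with the macrophage and 3 with the fibroblast covariate (4 to 5 with each array left out). Higher inhibitors numbered 0 with the fibroblast covariate and 1 to 2 with each array left out. Over all genes, 880 higher and 1041 lower became 467 and 475 with the macrophage and 488 and 719 with the fibroblast covariate. They became 1200 and 1315 with trended and robust moderation, and 1082 and 1225 of 12244 genes with the dimmest 30% removed. Genes that did not pass changed sign in some settings. CTSC was at 0.052 with the macrophage covariate and 0.044 without doxycycline tumours 4 and 5. CTSK was at 0.21 with array weights, 0.55 with the macrophage covariate, 0.64 without those tumours and -0.38 to 0.44 with each array left out. CTSG was at -0.054 with the macrophage covariate, -0.059 without those tumours and -0.12 to 0.20 with each array left out. CTSV ranged from -0.14 to 0.24 and CTSW from -0.31 to 0.080 with each array left out. The cause of these changes was not tested. CTSE, CTSG and CTSV fell under the filter on dim genes and have no value there.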
